A study of Rattus norvegicus with 12 samples.

Results

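Fibrinogen, the coagulation factors and the plasmin system were followed through 10 genes: the fibrinogen chains Fga, Fgb and Fgg, the coagulation factors F2, F5 and F10, the kininogen gene Kng2l1, the anticoagulant Proc, and Plg and Serpinf2 of the plasmin system. A gene was taken through the probe sets that the platform's annotation assigns to it alone; a probe set is the group of short probes that reads 1 transcript. All 10 genes were measured, by 15 probe sets of the 15866 tested, and they stand among 10411 genes. The series compares thermally injured rats with sham control rats on Affymetrix RAE230A arrays, with 3 samples per day. Of its 12 samples, the 9 taken 2, 4 and 7 days after the injury were used, and the 3 of day 1 were left out because their identifiers did not stand for the same probe sets. Each sample is a deposited log2 ratio of 2 array signals from total RNA, thermal injury in channel 2 and sham control in channel 1 by the labels. The labels give no strain, age, sex, tissue or burn size, and whether the triplicates of a day are separate animals is not stated either, so p-values measure only the spread between these samples.

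The sources used here do not say which signal is on top of the ratio. Injury over sham is the likely order, and a positive value is read below as higher in the injured rats. A ratio of 0 means equal signals after each array was centred on its median probe set. A gene's value is the mean of its probe sets. It was called changed when the adjusted p from limma over all 10411 genes was under 0.05.

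Fibrinogen is a plasma protein of paired Aα, Bβ and γ chains, encoded by Fga, Fgb and Fgg and made chiefly by hepatocytes. Thrombin, the active form of the F2 product, cuts it to fibrin, and plasmin, the active form of the Plg product, dissolves the fibrin clot. In the acute-phase response to injury, interleukin 6 acts through STAT3 on hepatocytes and raises transcription of fibrinogen and, in the rat, of T-kininogen. HNF1, a liver transcription factor, also acts on fibrinogen promoters.

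The promoters of the 3 fibrinogen genes and of Kng2l1 are shown because the fibrinogen genes are textbook acute-phase genes and Kng2l1 held the largest ratios of the 10. Each run holds 250 bases before and 50 after the annotated start in gene orientation, from RefSeq on GRCr8. Capitals mark CTGGGA, the core of the interleukin 6 element of rat acute-phase genes, and GTTAAT, a part of the HNF1 site, on either strand, so TCCCAG and ATTAAC are their reverse forms. The 2 motifs did not overlap in these windows. The first-listed start is used. Fga and Kng2l1 have a second, from which the distances below are 148 and 70 bases in Fga and 158 bases in Kng2l1.
Fga, chr2:170671919-170672218, plus strand: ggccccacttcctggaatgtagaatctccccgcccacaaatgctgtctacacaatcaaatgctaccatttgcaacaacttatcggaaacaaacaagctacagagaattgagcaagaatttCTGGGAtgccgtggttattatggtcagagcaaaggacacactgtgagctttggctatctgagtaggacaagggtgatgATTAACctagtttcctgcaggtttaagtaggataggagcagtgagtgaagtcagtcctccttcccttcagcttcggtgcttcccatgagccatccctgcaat
Fgb, chr2:170700826-170701125, minus strand: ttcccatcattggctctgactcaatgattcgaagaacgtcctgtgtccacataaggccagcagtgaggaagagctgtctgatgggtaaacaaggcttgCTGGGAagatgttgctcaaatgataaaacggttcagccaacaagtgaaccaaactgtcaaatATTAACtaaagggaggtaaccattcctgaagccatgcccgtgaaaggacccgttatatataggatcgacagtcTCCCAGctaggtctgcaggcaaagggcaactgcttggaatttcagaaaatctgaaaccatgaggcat
Fgg, chr2:170652833-170653132, plus strand: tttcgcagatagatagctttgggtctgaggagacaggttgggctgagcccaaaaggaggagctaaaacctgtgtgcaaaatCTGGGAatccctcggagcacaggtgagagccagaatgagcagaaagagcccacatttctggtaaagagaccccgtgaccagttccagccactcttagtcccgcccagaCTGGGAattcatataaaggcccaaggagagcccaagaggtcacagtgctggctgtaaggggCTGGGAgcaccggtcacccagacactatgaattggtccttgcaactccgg
Kng2l1, chr11:91483169-91483468, plus strand: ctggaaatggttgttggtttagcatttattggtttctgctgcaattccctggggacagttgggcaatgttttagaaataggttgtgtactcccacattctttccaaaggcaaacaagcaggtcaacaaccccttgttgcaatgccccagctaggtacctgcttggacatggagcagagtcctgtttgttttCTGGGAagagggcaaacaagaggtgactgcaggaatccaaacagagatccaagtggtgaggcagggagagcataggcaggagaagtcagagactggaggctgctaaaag

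Fgg, Fga and Fgb follow one another on chromosome 2 with 0 annotated genes between them. CTGGGA began 130 bases before the start in Fga, 152 bases before it in Fgb, and 169 and 61 bases before it in Fgg. Fgb also held the reverse form 17 bases before its start, and Fgg a forward copy at the start itself. In Kng2l1 it lay 59 bases before the start. The reverse form of GTTAAT began 52 bases before the start in Fga and 90 bases before it in Fgb, and neither Fgg nor Kng2l1 held a copy. CTGGGA was found in 8 of the 10 genes, F5 and Serpinf2 being without it, and in 30.4% of the first-listed promoters of 27457 genes. GTTAAT was found in 5 of the 10, which were Fga, Fgb, F2, Plg and Proc, and in 7.37% of those promoters. These are matches of letters and show no binding.

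None of the 10 genes passed the test at any day, in the mean of the 3 days or between days. The background was 0.144% of all genes called at day 2, 0% at day 4, 0.048% at day 7 and 0.327% in the mean of the 3 days. It was 0% for day 7 minus day 2 and for day 4 minus day 2, and 0.00961% for the F test over the 3 days. At an unadjusted p under 0.05 the count was 3 of 10 at day 2 (Fga, Kng2l1 and Serpinf2), against 8.48% of all genes. It was 0 of 10 at day 4, against 10.7%, and 2 of 10 at day 7 (Fga and Kng2l1), against 12.4%. In the mean of the 3 days it was 3 of 10 (again Fga, Kng2l1 and Serpinf2), against 10.2%. The same 3 genes had 8 of their 9 samples above 0, as did at least that many samples for 2.7% of all genes. All 3 samples of day 2 lay above 0 in 5 of the 10 genes, against 13.8% of all genes, and all 3 of day 4 in 4 genes, against 18.3%. At day 7 all 3 lay above 0 in 2 genes, against 15.6%, and below 0 in 2 others, against 18%. The largest mean ratio was that of Kng2l1, 1.56-fold, and the other 9 genes lay between 0.942-fold and 1.21-fold.

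**Figure D1:**
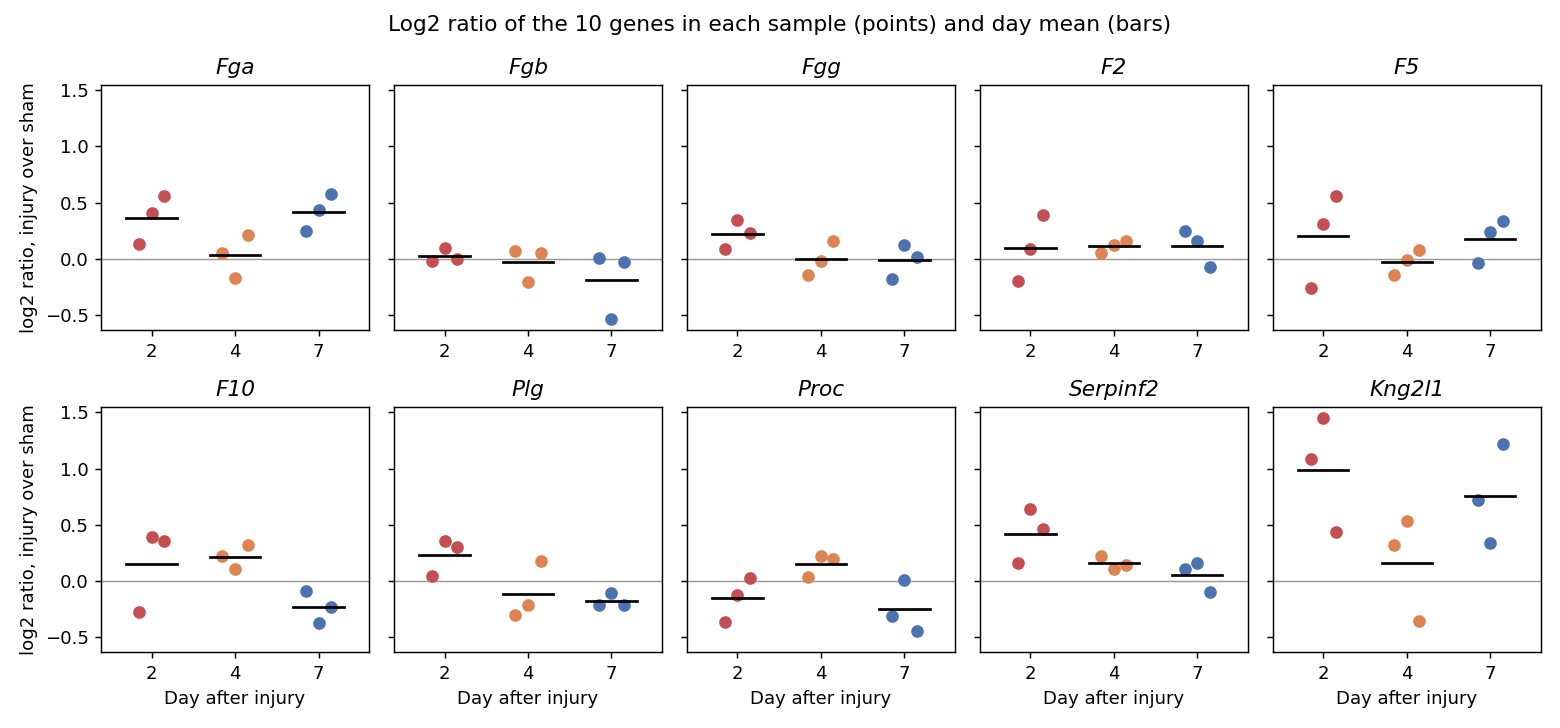
Log2 ratio of injury over sham (vertical axis) for each of the 10 genes at days 2, 4 and 7 after injury (horizontal axis). Points are the 3 samples of a day and bars are day means; Kng2l1 reached 1.45 at day 2 and 1.22 at day 7, and the other 9 genes stayed between -0.54 and 0.64.

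Most of these probe sets were bright, a word used here by inference. A ratio of 2 signals could be traced back to a pair of whole numbers unless at least 1 of them was above 20000, and a probe set is called bright where the ratios of most arrays could not be traced back. That held for 12 of the 15 probe sets, each in at least 6 of the 9 arrays, and for 6.40% of all probe sets. Averaged by gene, 8 of the 10 were bright, as were 685 of all 10411. The shares of all genes given above do not allow for brightness. Day means of the 685 were above 0 in 63.9% at day 2 and 67.6% at day 4, against 50.8% and 51.0% of all genes. Of the 685, 100 had an unadjusted p under 0.05 at day 2, 177 at day 4, 195 at day 7 and 128 in the mean (limma). The scale of the signals is not known, and whether bright ones were saturated was not tested. All 9 measured hepatocyte markers of a list of 10 were bright in the same sense. Day means were above 0 for 9 of these 9 markers at day 2, 2 at day 4 and 1 at day 7. In bulk RNA, fewer cells of a type and less RNA per cell cannot be told apart. Exocrine pancreas markers (10 of 10 measured, none bright) had median log2 ratios of 3.44 and 1.78 in day 4 samples 2 and 3, and between -0.36 and 0.47 in the other 7 samples. In day 4 sample 1 the median was 0.03, but single markers ran from -0.72 (Cel) to 2.75 (Pnliprp1). Leaving out samples 2 and 3 of day 4 keeps 1 sample of that day, and none of the 10 genes was called with them in. Such a fit therefore cannot show what they add. The part of the pancreas signal in the day 4 values was not tested.

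Fga, the Aα chain, was the fibrinogen gene with the highest ratios. Its log2 ratios were 0.13, 0.41 and 0.56 at day 2, 0.06, -0.17 and 0.21 at day 4, and 0.25, 0.43 and 0.57 at day 7. All samples of days 2 and 7 lay above 0, and those of day 4 lay on both sides of it. The day means were 0.37 ± 0.21, 0.03 ± 0.19 and 0.42 ± 0.16 (SD, n = 3 each). The mean of the 3 days was 0.27 (SE 0.07), a 1.21-fold ratio with a 95% interval of 1.09 to 1.34, and it did not pass over all genes (limma, adjusted p = 0.169).

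Fga was read by 2 probe sets, both bright. Probe set 1371258_at gave 0.13, 0.48 and 0.63 at day 2, 0.32, -0.11 and 0.28 at day 4, and 0.35, 0.63 and 0.89 at day 7, with a mean 1.32-fold ratio. Probe set 1370992_a_at gave 0.15, 0.23 and 0.26 at day 7, all below the lowest day 7 value of the other, and a mean 1.11-fold ratio. The suffix _a_at marks a probe set that the manufacturer assigned to alternative transcripts of 1 gene. Which transcripts each read was not tested.

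Fgg, the γ chain, had log2 ratios of 0.09, 0.35 and 0.23 at day 2, -0.14, -0.02 and 0.16 at day 4, and -0.18, 0.12 and 0.02 at day 7. All day 2 samples lay above 0, and the later days straddled it. The mean of the 3 days was 0.07 (SE 0.06), or 1.05-fold with a 95% interval of 0.954 to 1.15 (limma, adjusted p = 0.758).

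Fgb, the Bβ chain, had 3 probe sets that gave unlike values. The bright one, 1370511_at, gave 0.10, 0.46 and 0.41 at day 2, -0.13, 0.06 and 0.12 at day 4, and -0.03, 0.09 and 0.25 at day 7. It was above 0 in 7 of 9 samples and averaged 1.11-fold (limma over probe sets, adjusted p = 0.448). The dimmer sets, 1371234_at with a median signal of 1203 and 1388266_at with 582, averaged 0.894-fold and 0.884-fold and were above 0 in 3 of 9 samples each. Averaged over the 3 probe sets, Fgb had day means of 0.02 ± 0.06, -0.03 ± 0.16 and -0.18 ± 0.30 (SD, n = 3 each) and a mean of -0.06 (SE 0.08, adjusted p = 0.844), while its brightest probe set alone gave a mean of 0.15, so the sign of the gene's mean turned on which probe sets entered it.

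The highest correlations across samples among the fibrinogen probe sets (15 pairs) were between bright ones, and none passed after adjustment. Not every bright pair had a high one. Over the 9 samples, Fgb 1370511_at and Fgg had a Pearson r of 0.86 and a Spearman rho of 0.87, with exact permutation p-values of 0.0034 and 0.0045 (two-sided) that became 0.068 and 0.068 after adjustment over the 30 relations computed. The r was 0.67 without the 2 samples farthest from the median of the Fgb probe set and 0.78 on deviations from day means. Fga 1370992_a_at and Fgb 1370511_at had an r of 0.79 and a rho of 0.77 (exact permutation, adjusted p = 0.095 and 0.128). Their r was 0.86 without the 2 samples farthest from the median of the Fga probe set. The dim Fgb sets had an r of -0.39 and 0.17 with Fgg and -0.28 and 0.20 with the bright Fgb set. Bright Fga 1371258_at had an r of 0.27 with Fgg, 0.47 with Fgb 1370511_at and 0.70 with Fga 1370992_a_at. Among the 1014 other bright probe sets, the median r with Fgb 1370511_at was 0.10, and 1.58% had one at least as high as that of Fgg, which is itself counted. For the other bright pairs such a share lay between 4.14% and 17.6%.

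**Figure D2:**
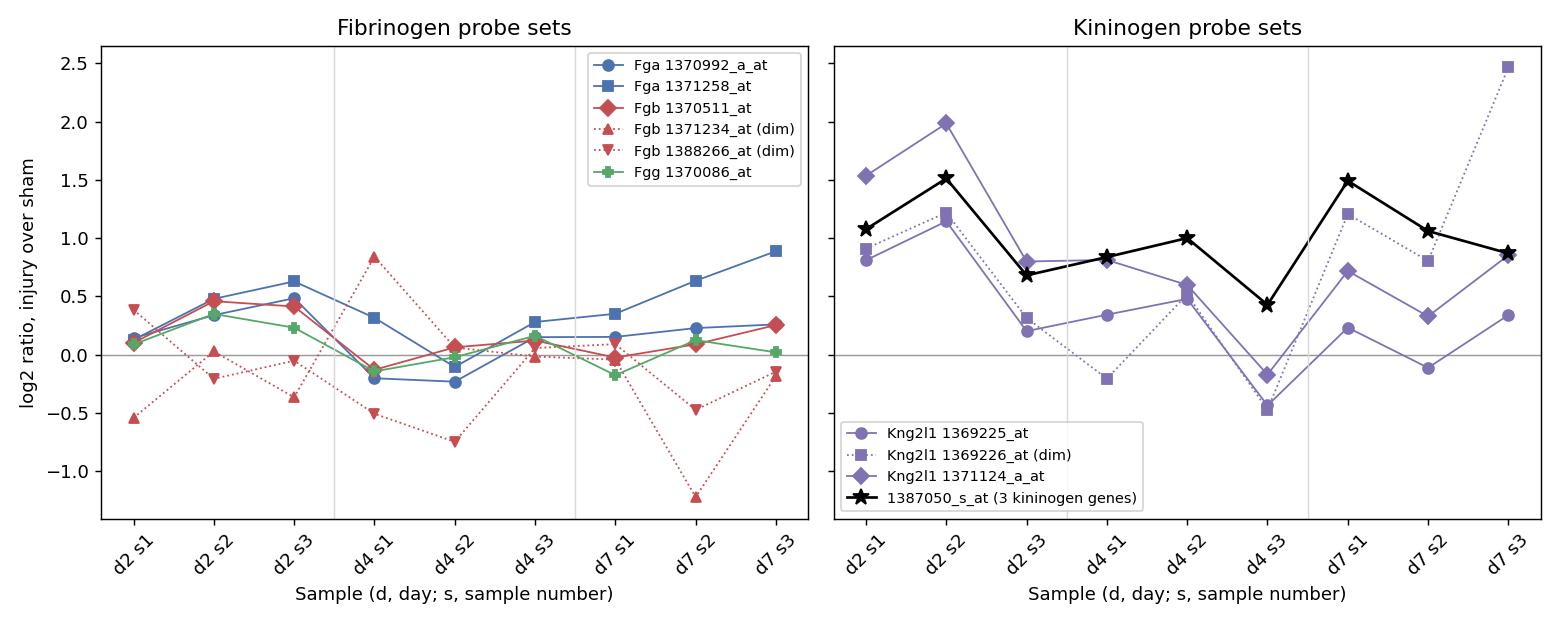
Log2 ratio of injury over sham (vertical axis) in each of the 9 samples (horizontal axis; d, day; s, sample number) for the 6 fibrinogen probe sets (left) and 4 kininogen probe sets (right). Lines only join the values of 1 probe set and carry no order; dotted lines are probe sets that were not bright, and the kininogen probe set shared by 3 genes lies above 0 in 9 of 9 samples.

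The genes whose 9 values lay closest to the mean of Fga, Fgb and Fgg, by Pearson r and given as a description, were Ttll3 (0.96), Ctsb (0.95), Id3 (0.93), Zfp672 (0.93) and Crot (0.93). Ctsb, which encodes cathepsin B, was bright. Ttll3 and Zfp672 were dim, with median signals of 120 and 163.

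Averaged over its 3 probe sets, Kng2l1 had the highest ratios of the 10 genes at days 2 and 7. Kininogens are plasma precursors of kinins. The log2 ratios of Kng2l1 were 1.08, 1.45 and 0.44 at day 2, 0.32, 0.53 and -0.36 at day 4, and 0.72, 0.34 and 1.22 at day 7. All samples of days 2 and 7 lay above 0, but the ranges of the 3 days overlapped. Its day means were 0.99 ± 0.51 (1.99-fold), 0.16 ± 0.47 and 0.76 ± 0.44 (1.69-fold; SD, n = 3 each), with adjusted p-values of 0.171 at day 2, 0.893 at day 4 and 0.210 at day 7 (limma). The mean of the 3 days was 0.64 (SE 0.13), or 1.56-fold with a 95% interval of 1.28 to 1.88, and it missed the threshold (adjusted p = 0.0734). The difference between day 4 and day 2 was -0.83 (limma, unadjusted p = 0.0205, adjusted p = 0.487). The probe sets of Kng2l1 differed at day 7. The highest day 7 mean, 1.49, came from 1369226_at, which was not bright. The bright sets 1369225_at and 1371124_a_at had day 7 means of 0.15 and 0.63, against 0.42 for Fga, and 1369225_at was at -0.11 in sample 2.

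Of the 15 probe sets, 1 passed a test over all probe sets, and it belongs to Kng2l1. The background over probe sets was 0.107% called at day 2, 0.0063% at day 4, 0.0567% at day 7 and 0.309% in the mean of the 3 days. Probe set 1371124_a_at gave 1.54, 1.98 and 0.80 at day 2, 0.81, 0.60 and -0.17 at day 4, and 0.72, 0.33 and 0.85 at day 7. It was above 0 in 8 of 9 samples, the exception being 1 day 4 sample. It rose at day 2, by a log2 ratio of 1.44 ± 0.60 (SD, n = 3; adjusted p = 0.0361), and in the mean of the 3 days, 1.78-fold (adjusted p = 0.0208). The day 2 call was lost on leaving out any of 7 of the 9 samples, the exceptions being sample 3 of day 2 and sample 3 of day 4, and the mean call on leaving out any of 6, the exceptions being those and sample 2 of day 7. Over 17 alternatives each, chosen after seeing the data, the adjusted p reached 0.354 and 0.174, and both calls were also lost without the brightness trend and with day 4 samples 2 and 3 left out together. The day 2 call held in 5 of 17 and was further lost with centring along brightness, with array weights and with the replicate block. The mean call held in 9 of 17. Probe set 1369225_at averaged 1.26-fold and 1369226_at, with a median signal of 1608, averaged 1.68-fold, with its highest value, 2.46, in day 7 sample 3. Both were above 0 in 7 of 9 samples and neither passed.

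A further probe set, 1387050_s_at, is annotated to Kng1, Kng2 and Kng2l1 together and so lies outside the 15. It gave 1.08, 1.51 and 0.68 at day 2, 0.84, 1.00 and 0.43 at day 4, and 1.49, 1.06 and 0.87 at day 7, and all 9 samples lay above 0. Its mean rose 1.99-fold (log2 0.99, SE 0.10; 95% interval 1.71 to 2.32; adjusted p = 0.00242). It also rose 2.13-fold at day 2 (adjusted p = 0.0425) and 2.20-fold at day 7 (adjusted p = 0.0495), while the 1.69-fold ratio at day 4 did not pass (adjusted p = 0.169). The call in the mean held in 16 of 17 alternatives and was lost without the brightness trend (adjusted p = 0.0915). The day 2 call held in 5 of 17 (adjusted p up to 0.361) and was lost on leaving out any 1 sample other than sample 3 of day 2. The day 7 call held in 7 of 17 (adjusted p up to 0.202) and was lost on leaving out sample 1 of day 2 or any sample of days 4 and 7. The rat kininogen genes are near-identical in sequence, so which of them each probe set read is uncertain and was not tested.

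F2 encodes prothrombin, F10 the factor whose active form cleaves it, and F5 the cofactor of that cleavage. F2 had log2 ratios of -0.20, 0.09 and 0.39 at day 2, 0.06, 0.12 and 0.16 at day 4, and 0.25, 0.16 and -0.07 at day 7. Its day 4 samples all lay above 0, and its mean was 1.08-fold with a 95% interval of 0.967 to 1.20 (adjusted p = 0.662). F5 had -0.26, 0.31 and 0.56 at day 2, -0.14, -0.01 and 0.08 at day 4, and -0.04, 0.24 and 0.33 at day 7. No day of F5 lay on a single side of 0, and its mean was 1.09-fold with a 95% interval of 0.955 to 1.23 (adjusted p = 0.689).

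F10 had log2 ratios of -0.28, 0.39 and 0.35 at day 2, 0.22, 0.11 and 0.32 at day 4, and -0.09, -0.37 and -0.23 at day 7. All its day 4 samples lay above 0 and all its day 7 samples below 0, an opposition of these days seen in 7.62% of all genes. Centred along brightness, the day 7 values were -0.03, -0.26 and 0.03 with a mean of -0.09, and the opposition was lost. Its day means were 0.15 ± 0.38, 0.21 ± 0.10 and -0.23 ± 0.14 (SD, n = 3 each). The F test over the 3 days did not pass (limma, adjusted p = 0.473), and the mean of the days was 1.03-fold with a 95% interval of 0.917 to 1.16 (adjusted p = 0.885).

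Proc encodes protein C, which in its active form inactivates factors V and VIII. Its log2 ratios were -0.36, -0.13 and 0.03 at day 2, 0.03, 0.22 and 0.19 at day 4, and -0.31, 0.00 and -0.45 at day 7. Every day 4 sample lay above every day 7 sample, as for F10 and for 11.1% of all genes, but not for Proc when arrays were centred along brightness. The mean was 0.942-fold with a 95% interval of 0.849 to 1.05 (limma, adjusted p = 0.724).

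In the plasmin system, Plg encodes plasminogen and Serpinf2 encodes α2-antiplasmin, the main plasma inhibitor of plasmin. Plg had log2 ratios of 0.04, 0.35 and 0.30 at day 2, -0.31, -0.22 and 0.17 at day 4, and -0.22, -0.11 and -0.22 at day 7. All its day 2 samples lay above 0 and all its day 7 samples below 0, an opposition seen in 3.79% of all genes. Centred along brightness, the day 7 values were -0.16, 0.01 and 0.04 with a mean of -0.04, and the opposition was lost. Day 7 minus day 2 was -0.41 (SE 0.17; 95% interval -0.78 to -0.05; limma, unadjusted p = 0.0292, adjusted p = 0.559), and the mean of the 3 days was 0.985-fold (95% interval 0.889 to 1.09; adjusted p = 0.940).

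Serpinf2 had log2 ratios of 0.16, 0.64 and 0.46 at day 2, 0.22, 0.11 and 0.14 at day 4, and 0.11, 0.16 and -0.10 at day 7. All its samples of days 2 and 4 lay above 0, and 1 sample of day 7 lay below it. The ratio at day 2 was 1.34-fold (limma, adjusted p = 0.302) and that of the mean 1.16-fold with a 95% interval of 1.05 to 1.28 (adjusted p = 0.266). Day 7 minus day 2 was -0.36 (unadjusted p = 0.0426, adjusted p = 0.586).

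Between days, the median of the 10 genes was lower at day 7 than at day 2 when arrays were centred on their median, and not when they were centred along brightness. The median log2 ratio of the 10 was 0.21 at day 2, with 9 above 0, 0.07 at day 4, with 6 above 0, and 0.02 at day 7, with 5 above 0. Centred along brightness it was 0.15, -0.01 and 0.17, with 9, 5 and 6 above 0. For all genes it was 0.00, 0.01 and -0.01. Day 7 minus day 2 was below 0 in 8 of the 10, with a median of -0.22 and 0 called, against 0% of all genes called. At an unadjusted p under 0.05 it was 2 of 10 (Plg and Serpinf2), against 8.33% of all genes. These were also the 2 of 10 in which every day 2 sample lay above every day 7 sample, as did 7.15% of all genes; centred along brightness, Plg kept this and Serpinf2 did not.

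Hepatocyte markers and bright genes also had lower ratios at day 7 than at day 2. Day 7 minus day 2 had a median of -0.23 over the 9 hepatocyte markers, all below 0, and of -0.23 over the 685 bright genes, of which 16.6% were above 0. At day 7 itself the bright genes had a median of -0.18, with 18.7% above 0. When the arrays were centred along brightness instead, 6 of the 10 were below 0 in place of 8 and the median was -0.07. Under that centring the difference was -0.21 for Fgb and for Plg, -0.18 for F10, -0.16 for Serpinf2, -0.11 for Kng2l1 and -0.03 for Fgg. It was 0.11 for Proc, 0.18 for F5, 0.22 for F2 and 0.26 for Fga. The part of brightness or of hepatocyte RNA in these differences was not tested. By sample, the median of the 10 genes was 0.01, 0.35 and 0.37 at day 2, against -0.02, 0.26 and 0.21 for the hepatocyte markers. It was 0.06, 0.05 and 0.16 at day 4, against -0.24, -0.09 and 0.09, and -0.02, 0.14 and -0.05 at day 7, against -0.15, -0.08 and -0.09. In both groups, samples 2 and 3 of day 2 held the highest medians.

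**Figure D3:**
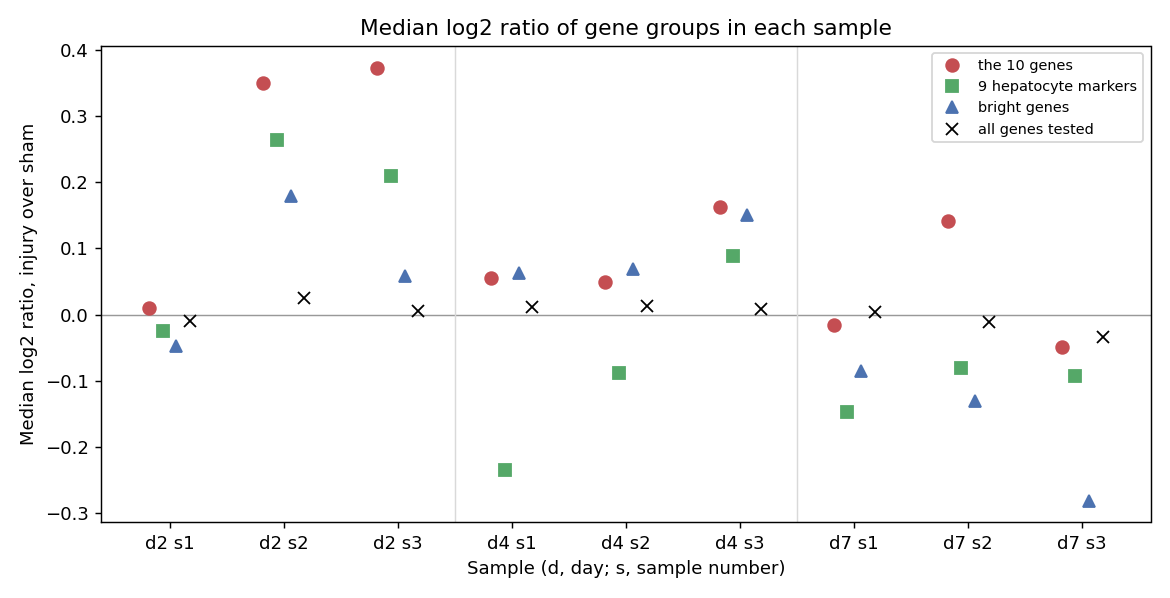
Median log2 ratio of injury over sham (vertical axis) in each of the 9 samples (horizontal axis; d, day; s, sample number) for the 10 genes, 9 hepatocyte markers, the 685 bright genes and all genes tested. The 10 genes were highest in samples 2 and 3 of day 2, at 0.35 and 0.37, where the hepatocyte markers were at 0.26 and 0.21.

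Of 58 other genes of these pathways in 6 lists, 41 were measured, and 4 of them passed, 2 higher and 2 lower. All 4 passed in the mean, against 0.327% of all genes, and 2 passed at day 2, against 0.144%. Both that rose were among 9 measured coagulation inhibitors (11 listed), at day 2 and in the mean. A2m encodes α2-macroglobulin, a broad protease inhibitor that in the rat is an acute-phase protein. Its log2 ratios were 1.19, 2.90 and 1.52 at day 2, 0.15, 0.74 and 0.66 at day 4, and 1.67, 1.27 and 1.34 at day 7, with a mean of 1.27 (SE 0.15; adjusted p = 0.00636; day 2 adjusted p = 0.0265). The lowest ratios of A2m were those of day 4. The day 2 call was lost without sample 2 or without sample 3 of that day (adjusted p up to 0.180 over 18 alternatives), and with the replicate block. Both calls were lost without the brightness trend and with day 4 samples 2 and 3 left out together (up to 0.108 for the mean).

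Serpina10 encodes the protein Z-dependent inhibitor of activated factor X. Its log2 ratios were 0.61, 1.04 and 0.54 at day 2, 0.12, 0.41 and 0.29 at day 4, and 0.45, 0.32 and 0.29 at day 7, all above 0. The mean was 0.45 (SE 0.07; limma, adjusted p = 0.0212) and day 2 was 0.73 (adjusted p = 0.0420). The day 2 call was lost on leaving out any 1 of the 9 samples (adjusted p up to 0.334 over 18 alternatives), and the mean call without sample 2 of day 4 or any of the 3 of day 7 (up to 0.274). Both were also lost without the brightness trend and with day 4 samples 2 and 3 left out together. In all, 14 of 18 alternatives ended the day 2 call of Serpina10, including array weights, the replicate block and the brightest probe set per gene. Of the other inhibitors, Serpind1, which encodes heparin cofactor II, had a mean log2 ratio of 0.16 (1.12-fold) and was above 0 in 8 of 9 samples without passing.

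Anxa2, an annexin that binds plasminogen and its activator at the cell surface, was the 1 of 7 measured genes for plasminogen activators, receptors and inhibitors (9 listed) that passed. It fell in the mean of the 3 days, with a log2 ratio of -1.01 (SE 0.16; adjusted p = 0.0250), and lay below 0 in all 9 samples, from -2.04 to -0.14. That call was lost without any of the 3 day 4 samples or sample 2 or 3 of day 7, without the brightness trend, with the replicate block, and with day 4 samples 2 and 3 left out together (adjusted p up to 0.209 over 18 alternatives). Foxa2, a liver transcription factor, fell in the mean, with -0.74 (SE 0.13; adjusted p = 0.0484), and was 1 of 11 measured genes of the interleukin 6 arm and liver factors (14 listed). It was below 0 in 8 of 9 samples, and its call was lost in 12 of 18 alternatives, including those that left out any sample of day 2, sample 2 or 3 of day 4, or sample 1 or 2 of day 7 (adjusted p up to 0.375). Of the same list, Socs3, a feedback inhibitor of STAT3 signalling, had a mean of 0.59 (adjusted p = 0.0730) and Stat3 had one of 0.59 (adjusted p = 0.125). Hnf4a, another liver transcription factor, had a day 7 log2 ratio of 0.94 (SE 0.15, limma, adjusted p = 0.0726).

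Among 9 measured coagulation and contact factors (18 listed), 4 thrombin receptors (all 4 listed) and Fgl2, the 1 measured of 2 fibrinogen relatives, 0 passed at any day or in the mean (limma). At an unadjusted p under 0.05 in the mean, 2 of the 9 factors and none of the others were counted, against 10.2% of all genes. Over all 41 genes that count was 11 (limma). It held 4 of 9 coagulation inhibitors, 4 of 11 interleukin 6 and liver genes and 1 of 7 plasminogen genes. By day, 12 of the 41 were counted at day 2, 8 at day 4 and 11 at day 7. The shares of all genes were 8.48%, 10.7% and 12.4%. Klkb1, which encodes plasma prekallikrein, was above 0 in 6 of 9 samples with a mean of 0.22. The median of the mean log2 ratios of all 41 genes was 0.06, and 25 of them were above 0.

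**Figure D4:**
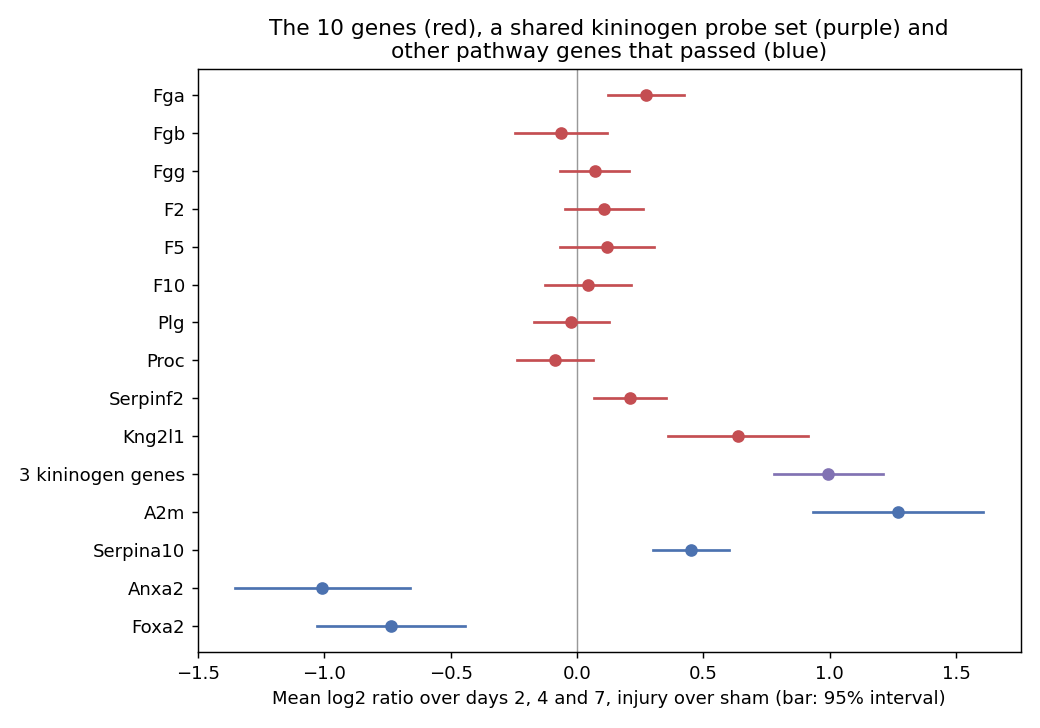
Mean log2 ratio of injury over sham over days 2, 4 and 7 (horizontal axis; points with 95% intervals from limma over 9 arrays) for the 10 genes, the kininogen probe set shared by 3 genes, and the 4 other pathway genes that passed. The intervals of Fga, Serpinf2 and Kng2l1 lie above 0 without adjustment for the number of genes, and the shared kininogen probe set and A2m lie farthest to the right, at 0.99 and 1.27.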

How the data were processed

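The authors deposited 1 log2 ratio of 2 array signals per probe set and sample, per the file headers and the labels; software, scaling and genome are each "not given in the sources used here", and the table held 15923 probe sets. After 57 controls were left out, 15866 were tested: 12783 had 1 symbol, 312 several and 2771 none in the platform annotation, whose symbols can be old. Averaging probe sets gave 10411 genes, 1868 with over 1 probe set.

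The median of each array was set to 0 (-0.13 to 0.16 before centring). Each ratio was searched for a pair of whole numbers up to 20000 (tolerance 1e-09); between 94.0% and 94.7% of an array's ratios were recovered, against 11.9% to 13.2% of shifted values. Ratios without a pair were taken to hold a signal above 20000 and set at 20000, and the median over arrays of the smaller signal was taken as brightness. Recovered sham signals had Spearman correlations of 0.637 to 0.701 for pairs of arrays of days 2, 4 and 7, but -0.00348 to 0.0230 between day 1 and the others, so day 1 was left out.

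limma 3.58.1 in R 4.3.3 fitted a mean per day over 9 arrays (lmFit and eBayes with a variance trend on brightness, 6 residual degrees of freedom). Benjamini-Hochberg adjustment ran over all genes, or over all probe sets where stated. For arrays, their number limits the precision. Sample numbers were not treated as pairs, since the labels state no pairing. Deviations from day means had correlations of -0.04 to 0.07 between same-numbered samples of different days. Between different-numbered samples of different days they were -0.12 to 0.11. Whether samples share a control is not known. The 10 genes, the pathway and marker lists, and the fit were chosen with earlier results of these data known. Named beside the 10 were pathway genes that passed, those with the smallest p, and the 5 genes most like fibrinogen; Serpind1, Socs3, Stat3, Klkb1, Fgl2, the markers named, Il6 and the shared kininogen probe set were added after their values were seen. Alternatives changed the trend, centring, scaling, dim probe sets, probe set averaging, array weights, a replicate block and the samples used. Sequences came from RefSeq promoters on GRCr8.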

Additional observations from a re-analysis of the deposited data

Results flagged for a closer look

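F10 was above 0 in all 3 samples of day 4 and below 0 in all 3 of day 7, and day 7 minus day 4 was -0.45. That difference itself was not tested. The F test over the 3 days gave an adjusted p of 0.473 (limma), and 7.62% of all genes had such opposite signs between these days. Centred along brightness, 1 of the 3 day 7 samples was above 0 and the pattern was lost. Plg was above 0 in all 3 samples of day 2 and below 0 in all 3 of day 7, and day 7 minus day 2 was -0.41 (limma, adjusted p = 0.559), a sign pattern shown by 3.79% of all genes. Centred along brightness, 2 of the 3 day 7 samples were above 0 and the pattern was lost. Groups of 3 samples are too small for a search for outlying samples.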

How the results depend on the processing

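Of the 10 genes, 0 were called in every comparison run under each alternative, with the following exceptions, all Kng2l1. With probe sets tested one by one, 1 gene was called at day 2 and 1 in the mean of the 3 days. In the mean, 1 was also called with dim probe sets left out (adjusted p = 0.0351). Leaving out each sample in turn gave 0 to 1 in the mean, the calls coming without sample 3 of day 2 (adjusted p = 0.0353) or of day 4 (0.0408). Over 18 alternatives the Kng2l1 mean lay between 0.33 and 0.73, with adjusted p from 0.0351 to 0.308.

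With the replicate block, 0 of the 10 were called in every comparison, and over all genes 4 at day 2, 1 at day 7 and 23 in the mean. Over all genes the day 2 count, 15 as reported, ranged from 0 (without the brightness trend, or without sample 2 of day 2) to 22 (dim probe sets left out). The day 4 count, 0 as reported, reached 36 with array weights. The day 7 count of 5 ranged from 0 to 16, and that of the mean, 34, from 4 (without the trend, or without day 4 samples 2 and 3) to 57 (dim probe sets left out). The causes were not tested. Signals taken to be above 20000 were not measured, and signals near background were not marked in the deposited values.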

Other observations

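Markers of blood and other liver cells that could bear on a coagulation readout were also listed. Of 8 platelet and megakaryocyte markers, 3 were measured (Ppbp, Pf4 and Itga2b), and 0 were called at any day or in the mean (limma). At an unadjusted p under 0.05 in the mean it was 1 of the 3, against 10.2% of all genes. Their median mean log2 ratio was -0.06. Neither of the 2 measured neutrophil markers (5 listed) was called at any day or in the mean. Both had an unadjusted p under 0.05 (limma) in the mean, against 10.2% of all genes, and at day 7, against 12.4%. Their median log2 ratio was 1.24 in the mean and 2.10 at day 7. S100a8, with a median signal of 167, gave -0.39, 0.42 and 2.34 at day 2, -1.70, 2.37 and 0.48 at day 4, and 3.15, 1.19 and 3.10 at day 7. S100a9 gave 1.85, -0.39 and 0.92 at day 2, 1.02, 2.14 and 0.71 at day 4, and 2.62, 0.98 and 1.57 at day 7. The days overlapped for both. Among 4 measured red cell, 6 macrophage, 3 endothelial and 6 stellate cell and fibroblast markers, 0 were called at any day or in the mean (limma). At an unadjusted p under 0.05 in the mean the counts were 2, 0, 1 and 4, against 10.2% of all genes. Of 10 exocrine pancreas markers, 1 was called in the mean, against 0.327% of all genes. That was Cela1, which was lower (log2 -0.46, adjusted p = 0.033), while 9 of the 10 had means above 0. Il6, the cytokine that drives fibrinogen transcription, had a median signal of 219 and was above 0 in 4 of 9 samples.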
